A study of Homo sapiens with 5 samples.

Results

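The comparison examined is that of the array from GFP-SAS cells given MLN8237 with the array from cells given DMSO, which are 2 of the 5 arrays of the series. GFP-SAS is a human tongue squamous cell carcinoma line that carries green fluorescent protein. MLN8237 (alisertib), an inhibitor of the kinase activity of Aurora A, was given at 100 nM for 24 h, and DMSO is its vehicle. The other 3 arrays are from cells transfected for 24 h with a non-targeting siRNA (siNT) or with 10 nM of siAURKA-1 or siAURKA-2, siRNAs against the mRNA of Aurora A. Each group is 1 array of 1 cell line. All 18239 genes with a value were described, each by the median over its probe sets of the value with MLN8237 minus the value with DMSO. The values are log2 signals, so that a difference of 1 is a doubling, and a gene was counted as higher or lower when it differed at least 1.5-fold.

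Aurora A is a serine/threonine kinase that matures centrosomes and builds a bipolar spindle. It is activated by BORA in G2 and by TPX2 on the spindle, and it phosphorylates PLK1 at mitotic entry. Cells in which it is inhibited enter mitosis but form spindles with unseparated or disordered poles, and they are delayed in mitosis. MLN8237 acts on the protein and not on its mRNA, so the arrays show what followed at the level of transcripts and not whether the kinase was inhibited.

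With 1 array on each side there is no estimate of error, and no test was possible for any difference given here. For scale, most values are set beside the same value for siNT minus DMSO, a comparison in which no inhibitor was given. That comparison shares the DMSO array, and a DMSO reading that is high or low by itself moves both values the same way. It also holds any effect of transfection. The gene lists were chosen with earlier results of these data known. A list count above the share of all genes is therefore a description and no independent support. In the deposited table the 5 arrays of every probe set have a median of 0, so there is no expression level, genes near background cannot be recognised, and the squamous markers cannot be checked for their presence. Of 10 listed squamous epithelial markers 7 were measured, with differences from -0.45 for KRT5, the basal keratin, to 0.48 for LAMB3, a laminin chain, and a median of -0.23 (siNT 0.00). Of these 7 markers 6 lay below DMSO, where 47.5% of all genes did, and all 7 lay below siNT, where 52.5% did. The 10 fibroblast markers lay between -0.03 and 0.10, the 9 measured leukocyte markers between -0.10 and 0.04, and the 8 endothelial markers between -0.10 and 0.09. Whether levels of such cells' markers were above background could not be read.

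The 2 arrays were close. Of all genes, 71.3% differed by less than 0.1 in either direction, and the standard deviation of the difference over genes was 0.130. For siNT minus DMSO these values were 59.0% and 0.198. The inhibitor array was at least 1.5-fold above DMSO for 64 genes (0.351% of those measured) and at least 1.5-fold below it for 21 (0.115%). By the same rule siNT was above DMSO for 288 genes (1.58%) and below it for 106 (0.581%). At 2-fold, MLN8237 left 13 genes higher (0.0713%) and 3 lower (0.0164%), and at 3-fold 1 gene higher (0.00548%) and 0 lower. Fewer genes thus separated inhibitor from vehicle than separated the control transfection from vehicle. Against siNT in place of DMSO, MLN8237 gave 119 genes higher (0.652%) and 181 lower (0.992%), so both counts and their balance depend on the control array.

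**Figure D1:**
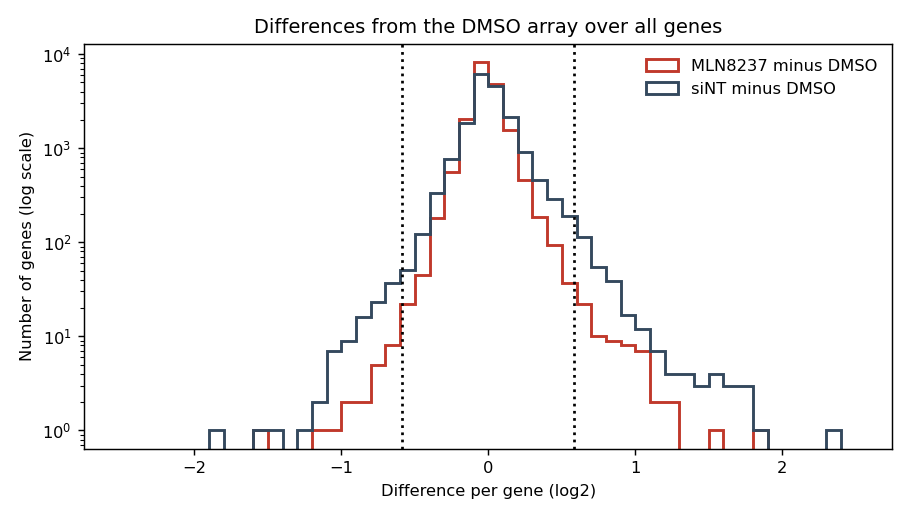
Number of genes (log scale) by difference from the DMSO array, in steps of 0.1 on the log2 scale, for MLN8237 and for siNT (18239 genes each). Dotted lines mark 1.5-fold; the MLN8237 distribution is the narrower one, with 85 genes (0.466%) beyond the lines against 394 (2.16%) for siNT.

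Mitotic genes were slightly above DMSO as a group, each by little. Of 36 measured G2 and M phase genes, 34 lay above DMSO, where 39.6% of all genes did, and the median was 0.20 against 0.00 over all genes. None reached 1.5-fold. The same genes were near DMSO on the siNT array (13 above and 21 below, median -0.01, against 48.6% and 40.7% of all genes), and 32 of the 36 were higher with MLN8237 than with siNT (median 0.22), where 36.1% of all genes were higher and 52.5% lower (median -0.01). The largest values were those of CENPE, the kinetochore kinesin (0.58 with MLN8237 and -0.02 with siNT), KIF20A, a kinesin of cytokinesis (0.54 and 0.20), and NDC80, which couples kinetochores to microtubules (0.46 and -0.12). CENPE, KIF20A and NDC80 are each read by 1 probe set. CCNB1, encoding cyclin B, was at 0.22 and -0.08. The proliferation antigen gene MKI67 was near level at 0.05 (siNT -0.16), and its 6 probe sets ranged from -0.18 to 0.30. SPC25, a partner of NDC80, and CDK1 were the members below DMSO. SPC25 was at -0.10 with MLN8237 and -0.91 with siNT, and so was 0.81 above siNT. On the siRNA arrays the list median relative to DMSO was -0.46 with siAURKA-1 and 0.07 with siAURKA-2. With MLN8237, PLK1 (-0.03), AURKB (-0.07) and CDC25B (-0.09), which also act at G2 and M phase, lay below DMSO. They are held by other lists, in which 12 of 17 and 6 of 7 genes lay above DMSO. The share above DMSO thus depends on which genes the list holds.

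Aurora A mRNA and several of its partners were also slightly above DMSO. AURKA, read by 1 probe set, was 1.40-fold above DMSO with MLN8237 (0.49), while siNT was at -0.15 and the arrays of siAURKA-1 and siAURKA-2 at -3.51 and -2.79. The MLN8237 array thus had the highest AURKA value of the 5. BORA, its activator in G2, was at 0.53 with all 3 probe sets between 0.46 and 0.70, and was at 0.00 with siNT. HMMR, a spindle protein that helps TPX2 to the microtubules, was at 0.42 (siNT 0.06), and TPX2 at 0.16 (siNT -0.01). PLK1 was level at -0.03 (siNT 0.00), with probe sets from -0.14 to 0.45. In all, 12 of 17 measured genes of Aurora A and its partners lay above DMSO, where 39.6% of all genes did. With siNT 8 of the 17 did (48.6% of all genes). The median was 0.14 (siNT 0.00), with no member past 1.5-fold. The chromosomal passenger complex is built around the related kinase Aurora B. The list for it holds 7 genes, among them the cohesin protector genes SGO1 and SGO2, which do not encode subunits of the complex. Of these 7 genes 6 lay above DMSO (median 0.19), and with siNT 4 did (median 0.00). SGO2 gave 0.50 (siNT 0.30), SGO1 0.23 (siNT 0.05) and CDCA8, encoding borealin, 0.42 (siNT -0.15), while AURKB was at -0.07 (siNT -0.04).

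**Figure D2:**
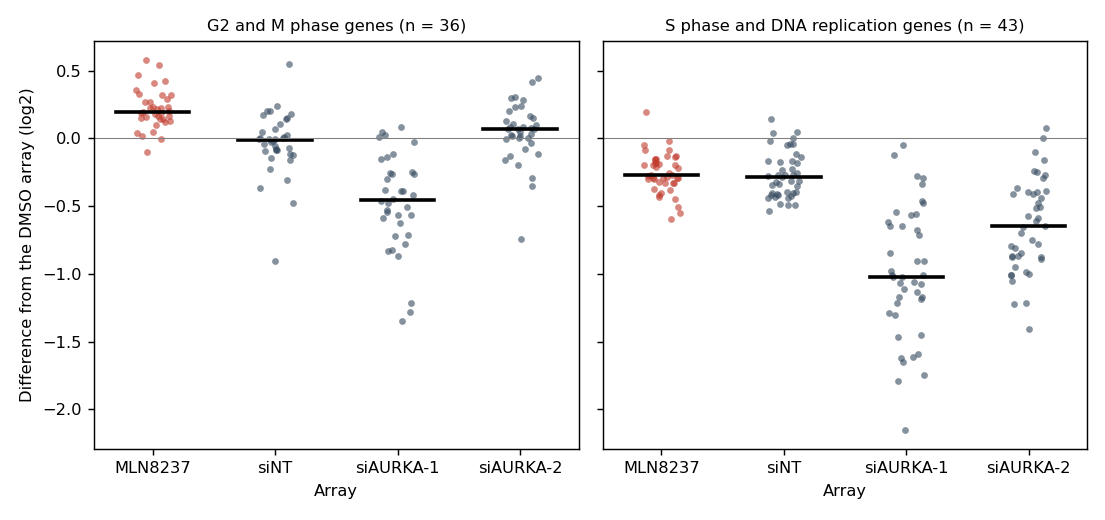
Difference from the DMSO array (log2) of each measured G2 and M phase gene (left, 36 genes) and S phase and DNA replication gene (right, 43 genes) on the other 4 arrays; points are genes and bars are list medians. The mitotic genes lie mostly above 0 with MLN8237 (median 0.20), and the medians of the replication genes lie below 0 on all 4 arrays.

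DNA replication genes went the other way, but no further than on the siNT array. Of 43 measured genes, 42 lay below DMSO with MLN8237, where 47.5% of all genes did, and the median was -0.27. With siNT 39 lay below and the median was -0.28. Between MLN8237 and siNT themselves the median was 0.00, with 21 genes higher and 19 lower with MLN8237. ORC1, the largest subunit of the origin recognition complex, was the one member past 1.5-fold at -0.59 (siNT -0.41). POLE2, a subunit of DNA polymerase epsilon, was at -0.55 (siNT -0.49) and PRIM1, the catalytic primase subunit, at -0.51 (siNT -0.27). PRIM2, the other primase subunit, was the sole member above DMSO, at 0.20 (siNT 0.14). Both siRNA arrays were lower than either, with list medians of -1.02 and -0.65 relative to DMSO. All 4 values rest on the same DMSO array. The 15 measured replication-dependent histone genes had a median of 0.00 and ranged from -0.29 to 0.29.

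The promoters of the G2 and M phase genes and of the DNA replication genes were searched for the elements known to serve such genes. The windows hold 250 bases before and 50 after the start of each gene (RefSeq, GRCh38.p14), and both strands were read. The cell cycle homology region, spelled TTTGAA, was found in 24 of the 31 promoters at hand for the G2 and M list (77.4%) and in 12.1% of 14492 promoters of measured genes. An E2F site, spelled TTTCCCGC, was found in 11 of 38 replication promoters (28.9%) and in 2.22% of all. NDC80 and ANLN, which are among the highest mitotic genes and hold a match, and GINS2, a helicase subunit gene at -0.33 (siNT -0.48), are shown with the match in capitals. ANLN, a scaffold of the cytokinetic ring, was at 0.41 with MLN8237 and -0.37 with siNT. ANLN and GINS2 were chosen after their values were seen. The windows are chr18:2571307-2571606 on the plus strand, chr7:36389612-36389911 on the plus strand and chr16:85688905-85689204 on the minus strand.
NDC80: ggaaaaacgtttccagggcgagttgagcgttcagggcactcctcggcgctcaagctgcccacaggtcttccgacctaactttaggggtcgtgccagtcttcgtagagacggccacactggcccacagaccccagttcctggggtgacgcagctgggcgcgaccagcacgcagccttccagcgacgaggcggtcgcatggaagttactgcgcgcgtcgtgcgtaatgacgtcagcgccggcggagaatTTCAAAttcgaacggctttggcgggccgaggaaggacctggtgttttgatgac
ANLN: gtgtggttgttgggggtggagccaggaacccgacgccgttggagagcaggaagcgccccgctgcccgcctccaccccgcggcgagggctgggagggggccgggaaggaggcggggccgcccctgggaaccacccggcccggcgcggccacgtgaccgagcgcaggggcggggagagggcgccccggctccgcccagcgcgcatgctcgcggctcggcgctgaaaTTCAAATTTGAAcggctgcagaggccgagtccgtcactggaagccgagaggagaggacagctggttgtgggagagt
GINS2: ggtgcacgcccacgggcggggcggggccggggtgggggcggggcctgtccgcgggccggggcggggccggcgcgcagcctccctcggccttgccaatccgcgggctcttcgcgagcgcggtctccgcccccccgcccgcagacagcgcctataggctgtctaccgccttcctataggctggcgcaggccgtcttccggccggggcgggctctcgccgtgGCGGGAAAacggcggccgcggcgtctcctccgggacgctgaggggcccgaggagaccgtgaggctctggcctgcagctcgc
The match in NDC80 begins 3 bases before the start, on the opposite strand. The 2 matches in ANLN adjoin each other. The first begins 26 bases before the start on the opposite strand, and the second is on the same strand. The one in GINS2 begins 31 bases before the start, on the opposite strand. A match is a description of the letters and not of binding. The shares depend on which genes the lists hold and use no value from the arrays, so they say nothing of the differences.

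The largest single value was that of a cytoskeletal gene, while most cytoskeletal genes were level. VIM, encoding the intermediate filament vimentin, was 3.55-fold above DMSO (1.83), and its 2 probe sets gave 1.75 and 1.90. Relative to DMSO it was at 1.74 with siNT, and at -1.97 and 1.68 with siAURKA-1 and siAURKA-2, respectively. Inhibitor, siNT and siAURKA-2 thus lay together and DMSO below them. NEFL, the neurofilament light chain gene, was at 1.20 with MLN8237, 0.52 with siNT, and at 1.64 and -0.08 with siAURKA-1 and siAURKA-2, respectively. The other 12 of the 14 measured intermediate filament genes lay between -0.16 and 0.20. Among 16 tubulin genes, TUBA1A (0.998, siNT 0.91) and TUBB2A (0.93, siNT 0.71) passed 1.5-fold and the rest lay between -0.06 and 0.25. Over all genes 0.351% were at least 1.5-fold higher with MLN8237. With siNT 2 of the 16 tubulin genes were, where 1.58% of all genes were. ANKRD1, a gene that responds to YAP, gave 1.24, with siNT at 1.55, siAURKA-1 at -2.43 and siAURKA-2 at 1.08. No other of the 24 measured YAP and TEAD targets passed 1.5-fold, and their median was 0.04 (siNT 0.20). None of 23 actin cytoskeleton genes did, with LCP1, the actin bundler L-plastin, highest at 0.39 (siNT 0.86).

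**Figure D3:**
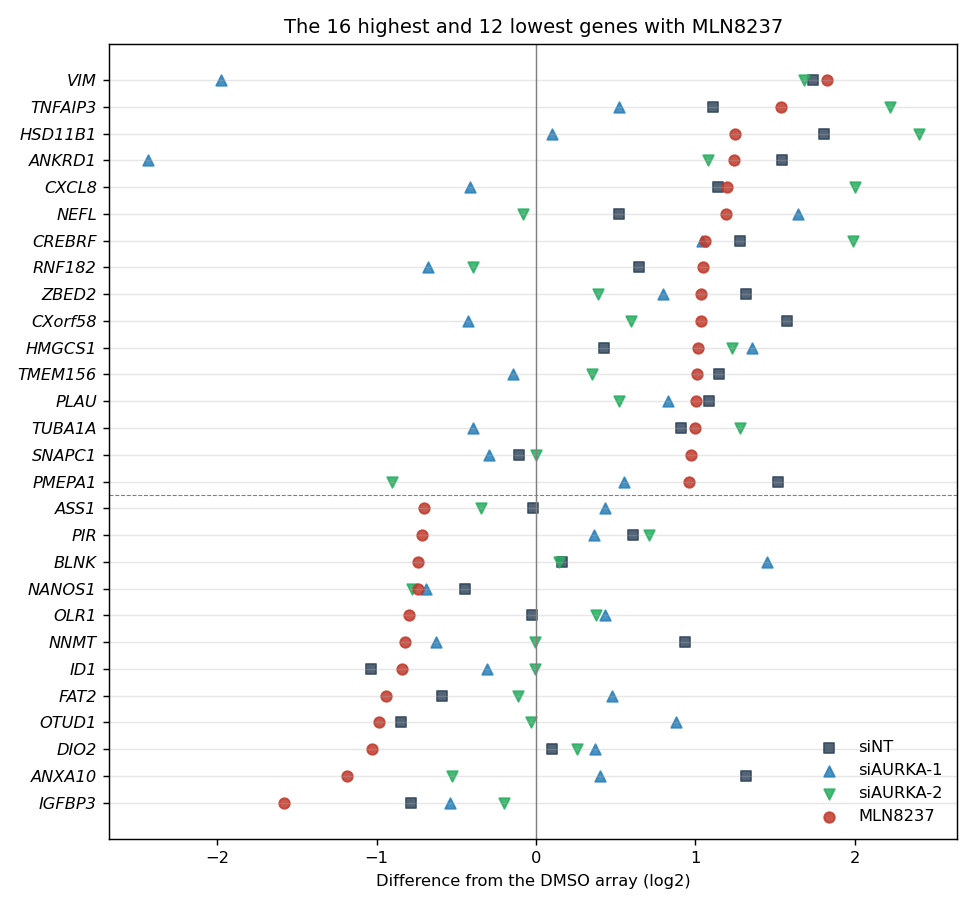
Difference from the DMSO array (log2, horizontal axis) of the 16 highest and the 12 lowest genes with MLN8237, on each of the other 4 arrays; each point is 1 array and the dashed line parts the groups. For VIM, CXCL8 and TUBA1A the MLN8237 and siNT points nearly coincide, while for SNAPC1, DIO2 and OLR1 the MLN8237 point stands by itself.

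A few inflammatory genes were well above DMSO. TNFAIP3, encoding the NF-kB inhibitor A20, was 2.91-fold above DMSO (1.54), with probe sets at 1.19 and 1.89. On the other arrays it was at 1.11 with siNT, and at 0.52 and 2.22 with siAURKA-1 and siAURKA-2, respectively, so that DMSO had the lowest value of the 5. RELB, an NF-kB subunit gene, was at 0.63 with MLN8237, -0.14 with siNT, and at 0.14 and 1.05 with siAURKA-1 and siAURKA-2, respectively. The inhibitor gene NFKBIE was at 0.38 (siNT -0.14). Of 15 measured NF-kB subunits and inhibitors 2 were at least 1.5-fold higher with MLN8237 and 1 with siNT, against 0.351% and 1.58% of all genes. Of 15 chemokine genes 4 were at least 1.5-fold higher and 0 lower (0.351% and 0.115% of all genes). With siNT 2 were higher and 0 lower (1.58% and 0.581% of all genes). The 4 with MLN8237 are the neutrophil chemokine genes CXCL8 (1.20, siNT 1.14), CXCL2 (0.83, siNT 0.49) and CXCL1 (0.65, siNT 0.42), and CCL20 (0.72, siNT 0.90). The siAURKA-1 array lay below DMSO for all 4 of them and the siAURKA-2 array above it. Among 17 cytokine genes IL24 alone passed, at 0.90 (siNT 1.65), and its 3 probe sets ranged from 0.24 to 1.27. PLAU, the urokinase gene, was at 1.002 (siNT 1.08). Medians of the 4 inflammatory lists ran from 0.00 to 0.09. Above DMSO lay 11 of 15 NF-kB genes (siNT 10), 11 of 15 chemokines (siNT 11) and 13 of 17 cytokines (siNT 14). Of 17 other inflammatory targets 8 did (siNT 10). Over all genes 39.6% lay above DMSO with MLN8237 and 48.6% with siNT. IL37, an anti-inflammatory member of the interleukin-1 family, was at 0.83 while the other 3 arrays lay between 0.08 and 0.18 above DMSO. Of 25 measured interferon-stimulated genes none passed 1.5-fold, and IFIT2 was lowest at -0.43 (siNT 0.10). Below DMSO lay 17 of the 25 with MLN8237 and 6 with siNT, against 47.5% and 40.7% of all genes.

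An NF-kB site, spelled GGANTTTCC, was present on either strand in 17 of 49 promoters of the 4 inflammatory lists (34.7%) and in 1.65% of the 14492. This share too depends on which genes the lists hold and uses no value from the arrays. TNFAIP3 and CXCL8 are shown because they are the highest members that hold one. Their windows are chr6:137867009-137867308 and chr4:73740319-73740618, both on the plus strand.
TNFAIP3: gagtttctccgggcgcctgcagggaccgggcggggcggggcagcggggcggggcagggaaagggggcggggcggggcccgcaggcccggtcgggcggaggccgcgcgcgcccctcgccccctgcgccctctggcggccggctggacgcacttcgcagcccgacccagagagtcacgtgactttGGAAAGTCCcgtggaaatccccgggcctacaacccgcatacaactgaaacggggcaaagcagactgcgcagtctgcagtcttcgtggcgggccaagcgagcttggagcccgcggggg
CXCL8: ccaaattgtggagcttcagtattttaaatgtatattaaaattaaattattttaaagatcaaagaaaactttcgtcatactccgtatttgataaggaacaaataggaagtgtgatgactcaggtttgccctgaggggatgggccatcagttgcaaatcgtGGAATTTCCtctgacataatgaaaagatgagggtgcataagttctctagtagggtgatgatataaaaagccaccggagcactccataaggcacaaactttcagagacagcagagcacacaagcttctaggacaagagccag
The match in TNFAIP3 begins 67 bases before the start on the opposite strand, and that in CXCL8 91 bases before it. None of the 5 printed promoters has a match of another searched motif that overlaps the capitals.

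Cholesterol synthesis genes lay mostly above DMSO. Of 21 measured, 17 lay above DMSO, where 39.6% of all genes did, and the median was 0.20 (siNT 0.14). At least 1.5-fold higher were 4 of them, against 0.351% of all genes. With siNT 14 lay above DMSO and 4 were at least 1.5-fold higher (48.6% and 1.58% of all genes). HMGCS1, which makes HMG-CoA, was 2.03-fold above DMSO (1.02), with probe sets at 0.87 and 1.17. It was at 0.43 with siNT, and at 1.36 and 1.23 with siAURKA-1 and siAURKA-2, respectively, so that DMSO was lowest and siNT next. IDI1, the isopentenyl diphosphate isomerase gene, was at 0.66 (siNT 0.24), HSD17B7, a sterol ketoreductase gene, at 0.80 (siNT 0.75), and MSMO1, a sterol demethylase gene, at 0.64 (siNT 0.89). Set directly against siNT, 17 of the 21 were higher with MLN8237 (36.1% of all genes), with a median of 0.05, and HMGCS1 was at 0.59. Fatty acid synthesis genes had a median of -0.02 with no member past 1.5-fold. Of 6 genes of cholesterol efflux or targets of the liver X receptor, 5 lay below DMSO and 1 was equal to it. With siNT 2 lay above DMSO and 3 below. The lowest with MLN8237 was MYLIP, which targets the LDL receptor for degradation, at -0.23. A sterol regulatory element, spelled TCACNCCAC, was found in 1 of 19 promoters of the list, that of SREBF2, a gene that was level at -0.02, and in 1.17% of all promoters. None is printed.

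Some of the highest genes belong to no list. CREBRF, a regulator of the CREB3 family, was at 1.06 with MLN8237, and all 7 of its probe sets lay between 0.36 and 1.31. It was at 1.28 with siNT, and at 1.04 and 1.99 with siAURKA-1 and siAURKA-2, respectively, so that DMSO stood below the 4 others. SNAPC1, a subunit of the complex that starts transcription of small nuclear RNA genes, behaved otherwise: it was at 0.97, with probe sets at 0.90 and 1.04, whereas siNT was at -0.11, siAURKA-1 at -0.30 and siAURKA-2 at 0.00. MAOA, encoding monoamine oxidase A, was at 0.84 (siNT 0.12, probe sets from 0.13 to 1.04), and the ubiquitin ligase gene RNF182 at 1.05 (siNT 0.64). FUCA1, the lysosomal fucosidase gene, was at 0.84 (siNT 0.45). CD24, a surface glycoprotein gene, was at 0.95 but higher still with siNT at 1.66.

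The gene furthest below DMSO was IGFBP3. IGFBP3, which binds insulin-like growth factors, was at -1.58, with both probe sets between -1.70 and -1.46. It was at -0.78 with siNT, and at -0.54 and -0.20 with siAURKA-1 and siAURKA-2, respectively, so that MLN8237 gave the lowest value of the 5 and DMSO the highest. IGFBP6, of the same family, was at -0.64, but siNT was lower at -0.80. These are the 2 of 13 measured IGF binding protein and receptor genes past 1.5-fold, and the rest lay between -0.15 and 0.24. Over all genes 0.115% were at least 1.5-fold lower. With siNT 2 of the 13 were at least 1.5-fold lower, where 0.581% of all genes were. ANXA10, an annexin gene read by 1 probe set, was at -1.18, with siNT at 1.32, siAURKA-1 at 0.40 and siAURKA-2 at -0.53. The other 10 measured annexins lay between -0.10 and 0.12. DIO2, the deiodinase that activates thyroid hormone, was at -1.03 with all 5 probe sets between -1.18 and -0.44. Its other arrays lay above DMSO, at 0.10 with siNT, and at 0.37 and 0.26 with siAURKA-1 and siAURKA-2, respectively. OLR1, the receptor for oxidised low-density lipoprotein, was at -0.80 with 4 probe sets from -1.11 to -0.40. Its siNT value was -0.02, and it was at 0.43 with siAURKA-1 and 0.38 with siAURKA-2, so that MLN8237 again gave the lowest value of the 5. OTUD1, a deubiquitinase gene, was at -0.99 and FAT2, a protocadherin gene, at -0.94, with siNT at -0.85 and -0.59. ASS1, the argininosuccinate synthase gene, was at -0.70 with both probe sets at -0.72 and -0.69, and siNT was level at -0.02. NNMT, which methylates nicotinamide, was at -0.82 against 0.93 with siNT.

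The TGF-beta family genes that differed most did so on the siNT array too. The BMP target ID1 was at -0.84, with 3 probe sets from -1.02 to -0.79, and ID3 at -0.37. On the siNT array both were lower still, at -1.03 and -0.49. PMEPA1, a feedback inhibitor of TGF-beta signalling, was at 0.96 (siNT 1.52), and INHBA, encoding the activin A subunit, at 0.90 (siNT 1.48). Past 1.5-fold were 2 genes higher and 1 lower of 24, against 0.351% and 0.115% of all genes. With siNT 5 were higher and 2 lower, against 1.58% and 0.581% of all genes. The list median was 0.00 (siNT 0.08). For these 4 genes the siNT value was the larger in size and had the same sign.

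The cystine transporter gene SLC7A11 and the antioxidant genes NQO1 and AKR1B10 lay below DMSO with MLN8237 and above it with siNT. SLC7A11, the cystine and glutamate exchanger gene, was at -0.66 with 3 probe sets from -0.70 to -0.31, and at 0.56 with siNT, and at -1.06 and 0.40 with siAURKA-1 and siAURKA-2, respectively. NQO1, a quinone reductase gene, was at -0.43 with probe sets at -0.44 and -0.43 (siNT 0.33), and AKR1B10, an aldo-keto reductase gene, at -0.36 (siNT 0.64). Of 17 measured NRF2 targets and aldo-keto reductases 1 passed 1.5-fold against DMSO, where 0.466% of all genes did in either direction. The list median was -0.04 against 0.21 for siNT. Below DMSO lay 11 of the 17 with MLN8237 and 2 with siNT, against 47.5% and 40.7% of all genes. Directly against siNT 15 of the 17 were lower with MLN8237 (median -0.25), where 52.5% of all genes were. In the ATF4 and amino acid list, which also holds SLC7A11, DDIT4, an inhibitor of mTORC1, was at -0.53 (siNT 0.84) and SLC3A2, the partner chain of SLC7A11, at -0.48 (siNT -0.35). Its 20 genes had a median of -0.10, and 17 were below siNT (52.5% of all genes). DDIT3, encoding the stress factor CHOP, was at 0.77 with MLN8237, -0.14 with siNT, and at -0.11 and 0.84 with siAURKA-1 and siAURKA-2, respectively. It was the only one of 18 endoplasmic reticulum stress genes past 1.5-fold, where 0.466% of all genes were. The chaperone genes CALR (-0.28, siNT -0.08) and PDIA4 (-0.26) lay below DMSO. In all, 13 of the 18 did with MLN8237 and 8 with siNT, against 47.5% and 40.7% of all genes.

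**Figure D4:**
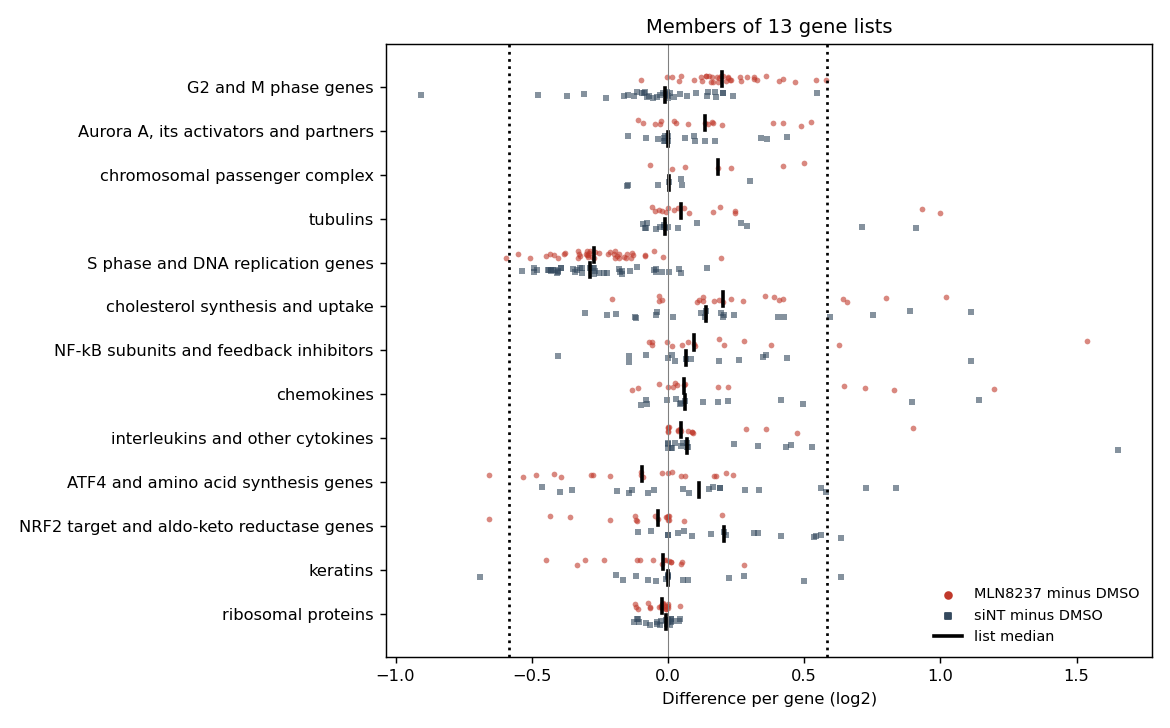
Difference per gene (log2) of the members of 13 gene lists, for MLN8237 minus DMSO (circles) and siNT minus DMSO (squares); bars are list medians and dotted lines mark 1.5-fold. The medians of the G2 and M genes (0.20 and -0.01) and of the NRF2 targets (-0.04 and 0.21) stand apart between the treatments, and those of the replication genes (-0.27 and -0.28) do not.

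Few genes of cell death and of p53 passed 1.5-fold. CDKN1A, encoding p21, was at 0.12 with MLN8237, 0.45 with siNT, and at 1.5001 and 1.20 with siAURKA-1 and siAURKA-2, respectively. MDM2 was at 0.13 (siNT 0.11), and its 11 probe sets ranged from -0.09 to 0.79. None of the 26 measured p53 targets and regulators passed 1.5-fold (median 0.07, siNT 0.08). Above DMSO lay 19 of them with MLN8237 and 17 with siNT, against 39.6% and 48.6% of all genes. GADD45A, a DNA damage response gene, was highest at 0.41 (siNT 0.05), and the stress cytokine gene GDF15 was lowest at -0.51 (siNT -0.66). PMAIP1, encoding the death-promoting BCL2 family protein NOXA, was at 0.68 with probe sets at 0.67 and 0.68 (siNT 0.51). It was the only one of 20 apoptosis regulators past 1.5-fold, where 0.466% of all genes were.

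No keratin, cornified envelope gene or squamous transcription factor measured reached 1.5-fold, although 6 of the 7 squamous markers lay below DMSO. Of the 16 keratins, KRT5 was at -0.45 (siNT -0.19), KRT7 of simple epithelia at -0.33 (siNT 0.22) and KRT8 at -0.31 with 8 probe sets from -0.33 to -0.26 (siNT -0.69). None of 30 cornified envelope, S100 and desmosome genes passed, with S100A9, a calprotectin subunit gene, lowest at -0.39 (siNT 0.59) and DSG3, the desmoglein of basal keratinocytes, at -0.25 (siNT 0.62). Among 19 squamous transcription factors KLF4 was highest at 0.46 (siNT 1.03) and ELF3 lowest at -0.40 (siNT -0.48). Of 24 mesenchymal and related genes CDH2, encoding N-cadherin, was higher (0.66, siNT 0.47) and FAT2 lower. With siNT 2 of the 24 were at least 1.5-fold higher and 1 lower. The mesenchymal filament gene VIM (1.83, siNT 1.74) is not in this list and was counted with the intermediate filaments. Integrins and laminins had a median of -0.05 against 0.28 for siNT, and 15 of the 17 were below siNT (52.5% of all genes). Past 1.5-fold were 1 of 18 MAPK feedback genes, DUSP10, a phosphatase of stress kinases (0.77, siNT 0.57), and 1 of 24 immediate early genes, KLF6 (0.63, siNT 0.53), whose 5 probe sets ran from 0.00 to 0.96. Of 17 metalloproteinase and inhibitor genes ADAMTS1, a secreted protease gene, was higher (0.62, siNT 0.98). Of 19 deiodinase, steroid and retinoid enzyme genes, HSD11B1 and HSD17B11 (0.64, siNT 0.34) were higher and DIO2 lower. Of 13 OTU family and A20-like deubiquitinases TNFAIP3 was higher and OTUD1 lower. Over all genes 0.351% were at least 1.5-fold higher with MLN8237 and 0.115% lower, and with siNT 1.58% and 0.581%. With siNT the MAPK list had 2 higher and 0 lower, and the immediate early list 1 and 1. The metalloproteinase list had 3 and 0, the enzyme list 1 and 0, and the deubiquitinase list 2 and 1. No gene past 1.5-fold was found among 14 EGF family genes, 17 heat shock genes, 21 glycolysis and hypoxia genes, 24 ribosome biogenesis genes, 22 ribosomal protein genes or 18 lysosome and autophagy genes. Their medians lay between -0.08 and 0.06.

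Where a gene had several probe sets, these are repeated readings of the same 2 RNA samples and no replicates. Of the 64 higher genes, 40 had several, and all shared a sign in 36 of them and all passed 1.5-fold in 19. Of the 21 lower genes, 10 had several, all sharing a sign, and in 4 all passed. Over all genes with several probe sets, 3828 of 11823 shared a sign. A gene with any probe set difference of exactly 0 was counted as not sharing a sign. The higher and lower genes were picked by the median of these same probe sets, so agreement among them is partly fixed by the choice. Ranked by the probe set nearest to 0, the highest genes were VIM (1.75), TNFAIP3 (1.19), HSD11B1 (1.19) and SNAPC1 (0.90), and the lowest IGFBP3 (-1.46), ID1 (-0.79), ASS1 (-0.69) and the RNA-binding protein gene NANOS1 (-0.69). HSD11B1, which regenerates cortisol, was at 1.25 by its median, and siNT was higher at 1.81.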

How the data were processed

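Total RNA of GFP-SAS cells was labelled with biotin by an Affymetrix GeneAtlas kit, per the labels, and each of 5 samples was read on 1 array. The submitters' processing notes name RMA. The authors' deposited values were read as log2 signal, since no log base or software version is given in the sources used here. All 49386 probe sets had a median of exactly 0 over the arrays, so the authors' values were centred per probe set. Of the probe sets, 45259 named 1 gene, 1327 several, 93 were controls and 2707 had no listed gene. Symbols were updated by Entrez number for 45178. A gene's value was the median of its probe set differences. In 52.1% of probe sets 2 or more arrays were at 0.

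No p-value is given, with 1 array per group. Gene counts used 1.5-fold, and 41 gene lists (786 of 839 entries measured) and 4 marker lists were described by counts and medians. Members and lists were chosen with earlier results of these data known. Named genes were the 30 highest and 30 lowest, the 15 highest and 15 lowest by the probe set nearest to 0 (at least 2 probe sets), 8 fixed genes, and list members past 1.5-fold or up to 3 furthest from 0 each way. The cell cycle and E2F motif searches were added after the values were seen. Alternatives were other folds, other control arrays, array centring, other summaries and filters of probe sets. The planned filter on low signal was not run because no level exists. The calculation was tested on simulated data. Python 3.11.15, pandas and numpy were used.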

Additional observations from a re-analysis of the deposited data

How the results depend on the processing

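No paired analysis was possible because each group has 1 array. Of the 64 higher and 21 lower genes at 1.5-fold, 13 and 3 passed 2-fold, and 1 and 0 passed 3-fold. With siNT as control the counts were 119 and 181, with the mean of DMSO and siNT 39 and 30, and among genes with at least 2 probe sets 40 and 10. The mean of probe sets (61 and 20), per-array medians (67 and 21) and the probe set nearest to 0 (43 and 15) kept both counts within 1.5 times. Leaving out probe sets with names ending in _x_at or _s_at (55 and 17) did so too.

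Among the 63 named genes past 1.5-fold, 17 stayed past it in the same direction against siNT, and 19 changed sign. These were ADAMTS1 (-0.37), ANKRD1 (-0.30), ARL14 (-0.0037), CCL20 (-0.17), CD24 (-0.71), CREBRF (-0.27), CXorf58 (-0.54), FAM24B (-0.0805), HSD11B1 (-0.56), IL24 (-0.72), INHBA (-0.58), LAMA2 (-0.10), MSMO1 (-0.24), PLAU (-0.21), PMEPA1 (-0.76), TMEM156 (-0.14) and ZBED2 (-0.28), and the lower genes ID1 (0.14) and IGFBP6 (0.15). The cause was not tested. None of those measured changed sign under the other 4 alternatives that could change them. Without the _x_at and _s_at probe sets 55 of the 63 were measured. Only 26 stayed past 1.5-fold against the mean of DMSO and siNT. With the mean of probe sets 59 did, with the probe set nearest to 0 48 did, and without the _x_at and _s_at probe sets 46 of 55 did. Centring arrays on their medians could change nothing, since every array's median over genes was already 0. A filter on low signal was not run. The number of arrays limits all precision.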

Other observations

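A few genes had their MLN8237 value at least 1.5-fold away from every other array, by a rule chosen after the values were seen. They number 4 higher and 8 lower of 18239. The higher ones are SNAPC1, whose nearest other array was 0.97 away, NEXN, encoding the actin-binding protein nexilin (0.71, 7 probe sets), IL37 (0.65) and TRNP1 (0.61). The lower ones are DIO2 (-0.999), IGFBP3 (-0.80), BLNK, the B cell linker adaptor gene (-0.74), OLR1 (-0.73), PIR, encoding pirin (-0.71), ANXA10 (-0.65), the thrombospondin gene THBS2 (-0.64) and CEBPD, a transcription factor gene of the acute phase response (-0.61, 5 probe sets). BLNK, PIR, IL37 and ANXA10 are each read by 1 probe set. With 1 array of each kind, a reading particular to that array and an effect of the inhibitor cannot be told apart.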
